A study of Homo sapiens with 40 samples.

Results

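The comparison set fibroblasts given 2 Gy of X-rays against fibroblasts given 5 cGy, both collected 3 h after their dose. It used the 3 arrays whose titles name 2 Gy at 3 h and the 3 arrays whose titles name 5 cGy at 3 h, which are 6 of the 40 arrays of the series. The series asked how a small priming dose alters the response of human skin cells to a large challenge dose, and the comparison asks which transcripts separate the challenge dose from the priming dose early, when each was given alone. The cells were AG1522, fibroblasts grown from normal human skin, and were fully confluent when they were irradiated, and the labels name no genetic change or drug in any group. Per the methods the dose of 5 cGy and the dose of 2 Gy were given at different tube voltages and dose rates, so dose, voltage and dose rate cannot be told apart here. The 4 sham arrays are baseline cultures coded for 0 h, and no unirradiated array labelled 3 h was used here. Each array is called a biological replicate by its label, and nothing in the sources used here says that the cultures were grown apart, so the p values measure the spread between these samples.

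Ionizing radiation breaks DNA. The kinases that sense the breaks stabilize p53, a transcription factor that switches on genes which stop the cell cycle, trigger cell death, aid repair and, through MDM2 and PPM1D, shut p53 off again. In confluent fibroblasts, which rarely divide and seldom die after irradiation, the arrest branch of this response is the best known. The p53 targets are therefore described first, by role, and the other gene groups follow.

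Levels are log2 intensities on the RMA scale, so a difference of 1 is a doubling, and values behind ± are the standard error (SE) of the difference in a linear model over all 40 arrays. A gene was called changed when its limma p value, after Benjamini-Hochberg adjustment over the 18244 genes, was under 0.05. The fibroblast markers were among the brightest transcripts, with a mean level of 11.76 to 12.04 on the 2 Gy arrays and 11.94 to 12.15 on the 5 cGy arrays, against 5.71 to 5.85 and 5.55 to 5.66 for the keratinocyte markers. All 12 fibroblast markers were lower after 2 Gy, with a median difference of -0.13 and 0 called. All 7 keratinocyte markers (median 0.18) and all 7 endothelial markers (median 0.25) were higher, again with 0 called, and so were all 6 leukocyte markers (0.08), all 6 smooth muscle and myofibroblast markers (0.04), 3 of 5 melanocyte (0.09) and 4 of 5 adipocyte markers (0.14). After cyclic loess normalization, which evens out differences that depend on level, the medians of the fibroblast, keratinocyte and endothelial markers were -0.13, 0.06 and 0.13. The keratinocyte, endothelial and leukocyte markers had median levels of 4.72, 5.36 and 4.34. Of all genes with a mean level from 4 to 5, 76.8% were higher after 2 Gy, and from 5 to 6, 72.22%. In bulk RNA fewer cells of a type and less RNA per cell cannot be told apart.

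At 3 h the doses differed most clearly in p53 target genes. Of 18244 genes, 5 were higher after 2 Gy (0.0274%) and 0 were lower, and 3 of the 5 were p53 targets: BBC3, CDKN1A and PPM1D. At an unadjusted p under 0.05, 1443 genes were higher (7.91%) and 202 lower (1.11%), and with a fold over 1.2 as well, which is the threshold of the methods, 1197 (6.56%) and 160 (0.877%). The 5 calls rested on some of the 6 arrays and on the spread borrowed from the other groups. With replicate 3 of 2 Gy or replicate 2 of 5 cGy left out 0 genes were called, as in a fit on only the 6 arrays. Without replicate 1 of 2 Gy 2 genes were called, and without replicate 2 of 2 Gy 7. Without replicate 1 of 5 cGy 3 were called, and without replicate 3 of 5 cGy 11. Arrays of the same replicate number deviated together, and with the replicate number as a block 27 genes were called, 24 higher (0.132%) and 3 lower (0.0164%). These 27 held all 5 of the first calls and 10 p53 targets, each of those 10 higher after 2 Gy. Of the 27, 9 had a mean level under 5, and 11 were also called when cyclic loess was added to the block.

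BBC3 encodes PUMA, a protein that triggers cell death by neutralizing the protective members of the BCL2 family. Its level was 9.25, 9.02 and 9.53 on the 2 Gy arrays and 8.09, 7.72 and 8.38 on the 5 cGy arrays. All 3 of the 2 Gy arrays lay above the 5 cGy arrays and above the sham arrays, which reached 8.34. The difference was 1.2 ± 0.18, or 2.31-fold, with an adjusted p of 0.00187 in limma, and the difference within the same replicate number was 1.16, 1.31 and 1.15. The difference from sham was 1.38 after 2 Gy and 0.17 after 5 cGy. A dimmer probe set of BBC3 differed by 0.43 (unadjusted p = 0.00705 in limma).

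CDKN1A encodes p21, the cyclin-dependent kinase inhibitor through which p53 holds cells in G1. It was among the brightest of the p53 targets, at 13.71, 13.62 and 13.85 after 2 Gy and 12.97, 13.01 and 13.19 after 5 cGy. The doses did not overlap, while the 5 cGy arrays lay within the sham range of 12.63 to 13.22. The difference was 0.67 ± 0.11, or 1.59-fold, with an adjusted p of 0.00248 in limma. A dimmer probe set of CDKN1A differed by 0.91, more than the brighter one.

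PPM1D encodes WIP1, a phosphatase that reverses damage signalling and restrains p53. It stood at 8.95, 8.6 and 8.91 after 2 Gy, at 8.06, 7.69 and 8.12 after 5 cGy, and between 7.65 and 8.12 in sham. The doses did not overlap here either, and the difference was 0.86 ± 0.14, or 1.82-fold, with an adjusted p of 0.00248 in limma. The other 3 probe sets of PPM1D differed by 0.81, 0.45 and 0.83. For BBC3, CDKN1A and PPM1D alike the 5 cGy arrays averaged within 0.17 of sham, so nearly the whole gap between the doses lay on the side of 2 Gy.

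**Figure D1:**
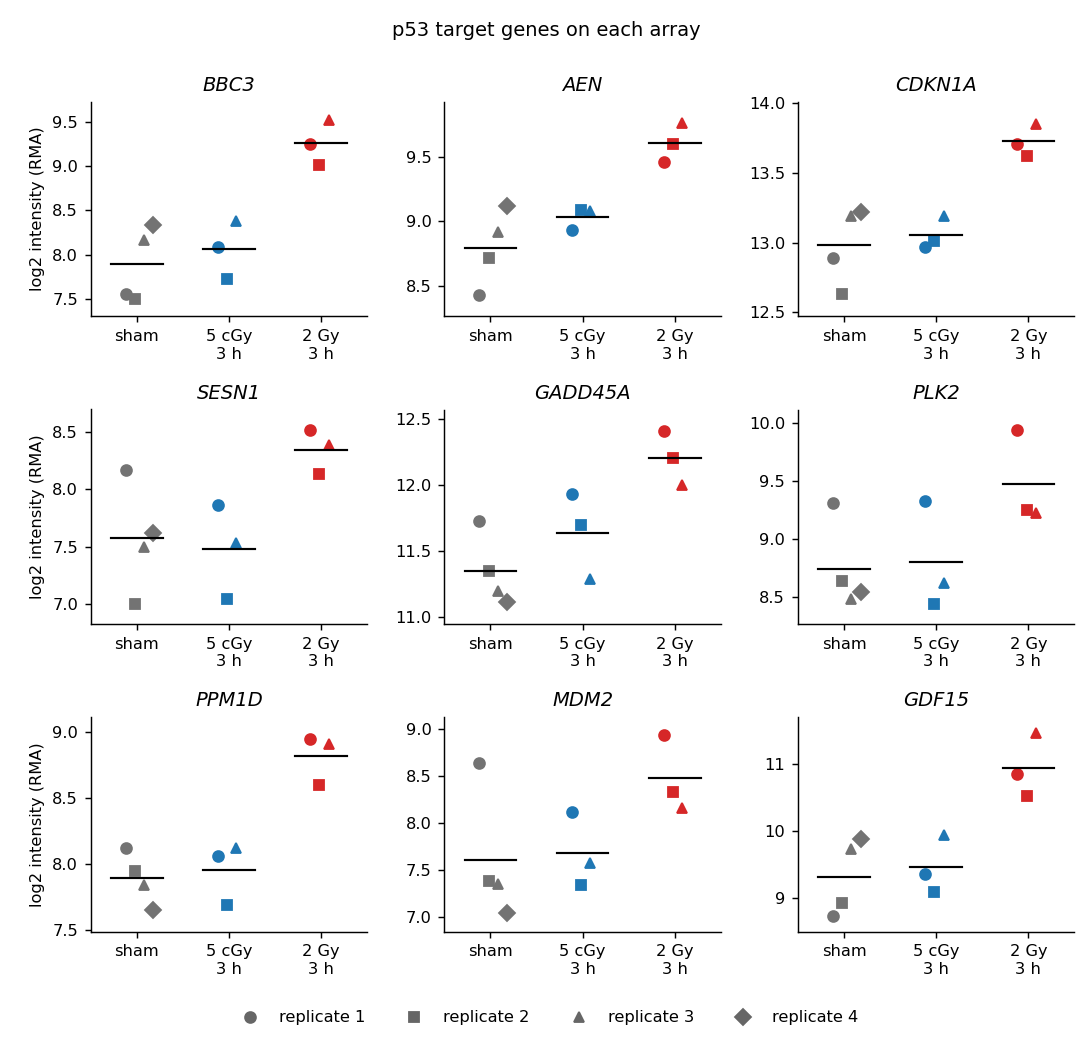
Log2 intensity of 9 p53 target genes on the sham arrays (grey), the 5 cGy arrays at 3 h (blue) and the 2 Gy arrays at 3 h (red), with a symbol for each replicate number and a line at the group mean. In every panel but PLK2 the 3 red points lie above the 3 blue ones, and in PLK2, MDM2 and SESN1 replicate 1 is the highest of its group in sham, 5 cGy and 2 Gy.

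The p53 targets as a whole leaned the same way. Of the 65 targets listed, 62 were measured, and 45 were higher after 2 Gy (72.58%) and 17 lower, where 62.63% of all genes were higher. Their median was 0.20 against 0.05 for all genes. At an unadjusted p under 0.05, 19 were higher and 2 lower, where 7.91% and 1.11% of all genes were. In 20 of the 62 all 3 of the 2 Gy arrays lay above all 3 of the 5 cGy arrays, as in 10.1% of all genes. In 2 targets the arrays separated the other way, as in 1.78% of all genes. Against sham the median of the 62 was 0.24 after 2 Gy and 0.05 after 5 cGy. The list median lay between 0.13 and 0.24 under every alternative tried for it.

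The arrest genes had the largest median of the 5 roles, 0.53 over 10 measured members, of which 9 were higher and 7 had an unadjusted p under 0.05. Of all genes 62.63% were higher, and 7.91% were higher with an unadjusted p under 0.05. Beside CDKN1A no arrest gene was called without the replicate block. SESN1 and SESN2 encode sestrins, which restrain the growth kinase complex mTORC1. SESN1 stood at 8.52, 8.13 and 8.39 after 2 Gy and at 7.86, 7.04 and 7.53 after 5 cGy, a difference of 0.87 ± 0.22 (adjusted p = 0.168 in limma, 0.00231 with the replicate block). SESN2 stood at 9.40, 9.68 and 9.65 against 8.28, 9.07 and 8.68, a difference of 0.90 ± 0.24 with an adjusted p of 0.193, and 0.0988 with the block. Both sestrins were separated by dose, but the highest sham array of SESN1, at 8.17, lay above the lowest 2 Gy array.

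GADD45A, a stress protein of the G2 checkpoint, read 12.41, 12.21 and 12.00 after 2 Gy and 11.93, 11.70 and 11.29 after 5 cGy (difference 0.57 ± 0.19, adjusted p = 0.324 in limma, 0.0378 with the block). PLK2, a polo-like kinase induced by stress, read 9.94, 9.25 and 9.22 against 9.33, 8.44 and 8.62. Its doses overlapped, with replicate 1 bright at both, and the differences within replicate numbers were 0.61, 0.82 and 0.60, and the adjusted p went from 0.472 without the block to 0.00382 with it. These values are of its brightest probe set, and the other 3 differed by -0.27 to 0.20. TOB1, an antiproliferative protein, differed by 0.48 ± 0.13, and PLK3 by 0.46 ± 0.18, and neither passed with or without the block. CCNG1, a cyclin that p53 induces, was the exception among the arrest genes, with a difference of -0.36 ± 0.27. Its 4 dimmer probe sets differed by -0.89, -0.62, -0.72 and -0.58, with unadjusted p values of 0.00201 to 0.0214 in limma, against 0.185 for the brightest. Falls of dimmer probe sets were frequent in this comparison, as described below.

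Of the 22 cell death genes 16 were higher (72.73%, against 62.63% of all genes), with a median of 0.20. At an unadjusted p under 0.05, 4 were higher and 1 lower, where 7.91% and 1.11% of all genes were. After BBC3 the smallest p was that of AEN, a nuclease induced during apoptosis. AEN read 9.46, 9.60 and 9.76 after 2 Gy and 8.93, 9.09 and 9.08 after 5 cGy, a difference of 0.57 ± 0.12 with an adjusted p of 0.0843 in limma, and 0.0105 with the block. The receptors for the death ligand TRAIL differed by 0.32 ± 0.11 (TNFRSF10B) and 0.27 ± 0.12 (TNFRSF10D, a decoy receptor). Of the best known death genes, BAX, which permeabilizes mitochondria, differed by 0.20 ± 0.15, PMAIP1 (NOXA) by 0.20 ± 0.27 and the death receptor FAS by 0.00 ± 0.26, and all 3 overlapped between the doses. PERP, a membrane protein, was separated in the other direction at -0.22 ± 0.10 with an adjusted p of 0.514.

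Among the 7 genes that act back on p53, only PPM1D was called, and the median was 0.13. MDM2, the ubiquitin ligase that degrades p53, read 8.93, 8.33 and 8.16 after 2 Gy and 8.12, 7.34 and 7.58 after 5 cGy. These arrays did not overlap, but sham ran from 7.04 to 8.64, and the difference of 0.79 ± 0.29 had an adjusted p of 0.37 in limma and 0.0673 with the block. RCHY1, another ubiquitin ligase of p53, was separated downwards, at 6.36, 6.25 and 5.92 against 6.49, 6.47 and 6.53 (difference -0.32 ± 0.14, adjusted p = 0.486).

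Repair genes had a median of 0.07 over 9 members, close to that of all genes. The 3 with an unadjusted p under 0.05 were POLH, a polymerase that copies past lesions (0.37 ± 0.16), FANCC of the Fanconi core complex (0.29 ± 0.13) and PCNA, the replication clamp (0.24 ± 0.11). None of them passed the adjustment. DDB2 and XPC, which recognize bulky lesions, differed by -0.01 ± 0.22 and 0.09 ± 0.12.

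Of the 14 measured genes of metabolism and secretion 10 were higher (71.43%, against 62.63% of all genes), with a median of 0.16. GDF15, a secreted stress cytokine of the TGF-beta family, had the largest difference of any p53 target. It read 10.85, 10.52 and 11.46 after 2 Gy and 9.37, 9.10 and 9.94 after 5 cGy, and the lowest 2 Gy array lay above the highest sham array at 9.89. The difference of 1.48 ± 0.30, or 2.78-fold, did not pass over all genes (adjusted p = 0.0632 in limma) and passed with the block (0.000108), where the differences within replicate numbers were 1.48, 1.42 and 1.53. IER5, an early response gene, differed by 0.46 ± 0.11 (adjusted p = 0.123, 0.038 with the block). DCP1B, a cofactor of mRNA decapping, differed by 0.37 ± 0.09 (0.163, 0.0378 with the block).

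Promoter sequence from RefSeq (GRCh38.p14) in windows of 300 bases, which open upstream of each annotated start and close just past it, was searched for the p53 half-site, 1 copy of the element that p53 binds in pairs. The half-site reads the same on both strands and was searched by itself. It occurred in 2329 of all 35116 windows (6.63%) and in 8 of the 75 windows that belong to 47 of the measured p53 targets. Windows of BBC3, CDKN1A and PPM1D held 0 matches, which says only that these letters are not in these windows. Of the targets called with the replicate block, SESN1, PLK2 and AEN held 1 match each, and their windows are shown for that reason, with the match in capitals.
SESN1, chr6:109008939-109009238, minus strand: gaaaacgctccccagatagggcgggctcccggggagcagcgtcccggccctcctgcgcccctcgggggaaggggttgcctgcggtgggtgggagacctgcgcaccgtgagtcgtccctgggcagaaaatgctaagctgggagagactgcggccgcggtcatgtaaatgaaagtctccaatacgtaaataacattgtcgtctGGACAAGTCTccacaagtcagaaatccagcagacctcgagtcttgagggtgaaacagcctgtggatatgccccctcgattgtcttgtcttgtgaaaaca
PLK2, chr5:58460037-58460336, minus strand: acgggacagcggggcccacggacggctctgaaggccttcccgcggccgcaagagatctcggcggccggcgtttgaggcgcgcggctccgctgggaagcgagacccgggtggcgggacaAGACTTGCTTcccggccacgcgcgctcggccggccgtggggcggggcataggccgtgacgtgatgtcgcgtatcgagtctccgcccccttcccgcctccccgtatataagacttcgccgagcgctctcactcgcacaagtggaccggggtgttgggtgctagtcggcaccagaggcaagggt
AEN, chr15:88621090-88621389, plus strand: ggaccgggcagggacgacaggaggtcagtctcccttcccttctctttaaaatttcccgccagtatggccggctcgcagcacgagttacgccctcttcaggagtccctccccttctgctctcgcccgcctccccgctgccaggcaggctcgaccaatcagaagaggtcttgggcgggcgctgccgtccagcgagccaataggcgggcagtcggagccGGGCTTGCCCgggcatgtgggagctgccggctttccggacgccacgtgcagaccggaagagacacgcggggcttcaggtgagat
The SESN1 window is 1 of 3 annotated starts of that gene. Which of these sequences p53 occupies was not measured here.

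Outside the p53 targets the 2 other calls were MORN1 and GALR2. MORN1 read 5.87, 5.73 and 5.97 after 2 Gy and 5.21, 5.23 and 5.37 after 5 cGy, with sham at 5.65 to 5.77. It was therefore the 5 cGy arrays that stood apart from sham, by -0.47, while the 2 Gy arrays differed from it by 0.12. The difference between the doses was 0.59 ± 0.11 (adjusted p = 0.025 in limma). GALR2, a receptor for the neuropeptide galanin, read 4.40, 4.53 and 4.51 against 3.98, 3.82 and 4, near the lower end of the scale (difference 0.55 ± 0.10, adjusted p = 0.0351). After cyclic loess both differences were smaller, 0.47 for MORN1 and 0.44 for GALR2, and neither was called, with adjusted p values of 0.22 and 0.226. Of the alternatives that gave an adjusted p, MORN1 was called in 7 of 22 and GALR2 in 7 of 21. The other probe sets of MORN1 differed by 0.15 and 0.19, and the mean of its probe sets by 0.31 (adjusted p = 0.15 in limma).

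Dim transcripts as a whole were shifted upwards. Genes with a mean level under 4 had a median difference of 0.08, those from 4 to 5 of 0.12 and those from 5 to 6 of 0.11, while from 8 to 10 and above 10 the medians were 0 and 0.01. The shift lay on the 2 Gy arrays, where the median deviation of genes under 5 from sham was 0.09, 0.06 and 0.12, against -0.04, 0 and 0.01 on the 5 cGy arrays. Olfactory receptor genes, which fibroblasts are not known to use, moved with it: 267 of 334 were higher, with a median of 0.13, 0 called and 2 called with the replicate block. Cyclic loess brought their median to 0.02. The p53 targets had a median level of 8.57, where the median of all genes was 0, and their median difference after cyclic loess was 0.14.

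**Figure D2:**
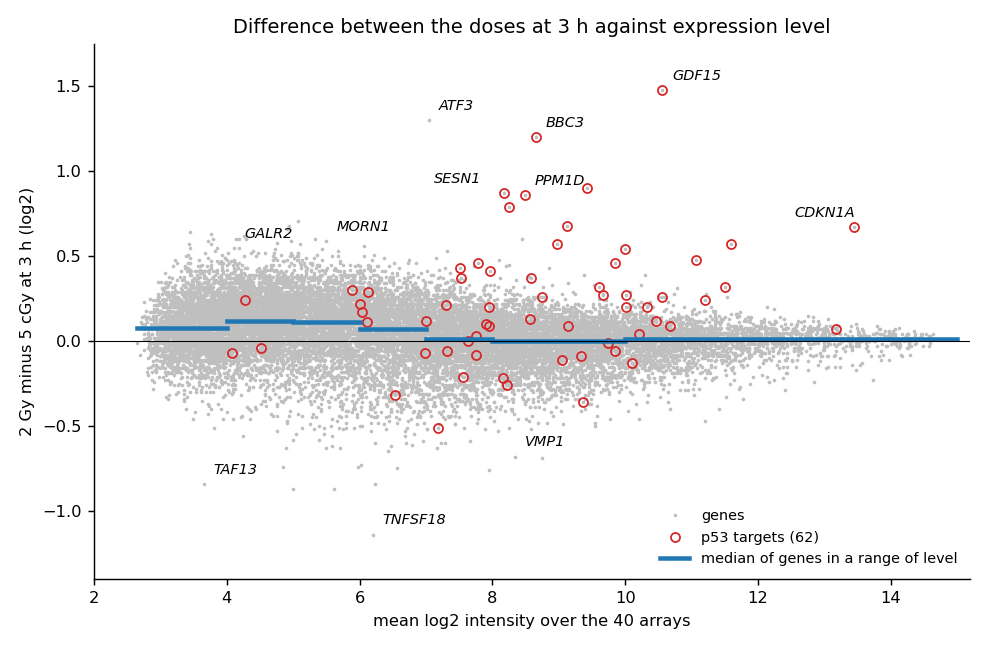
Difference between 2 Gy and 5 cGy at 3 h for each gene (grey) and for the 62 p53 targets (red circles) against the mean log2 intensity over the 40 arrays, with the median of each range of level as blue lines. The blue lines lie at 0.07 to 0.12 below a level of 7 and at 0 to 0.01 above it, and the p53 targets with the largest differences sit above a level of 8.

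From the brightest probe sets and all 40 arrays, 0 genes were called lower after 2 Gy, and 3 were with the replicate block. Without the block, 43 were called lower from the probe set with the largest interquartile range, 2 from the mean of probe sets and 1 without replicate 3 of 5 cGy. TAF13, a subunit of the general transcription factor TFIID, read 3.60, 3.21 and 3.47 after 2 Gy and 4.17, 4.58 and 4.04 after 5 cGy (difference -0.84 ± 0.18, adjusted p = 0.0801 in limma, 0.0063 with the block). TAF13 lay near the lower end of the scale, with a mean level of 3.65. Its difference from sham was -0.5 after 2 Gy and 0.34 after 5 cGy. VMP1, a membrane protein needed for autophagosome formation, read 7.97, 7.98 and 7.86 against 8.85, 8.54 and 8.45 (difference -0.68 ± 0.15, adjusted p = 0.0843, 0.0105 with the block). TNFSF18, the ligand of the T cell receptor GITR, read 6.05, 5.34 and 5.42 against 7.23, 6.12 and 6.90 (difference -1.14 ± 0.29, adjusted p = 0.168, 0.021 with the block). In all 3 genes the doses did not overlap, and the 2 Gy arrays also lay below all 4 sham arrays. A second probe set of TNFSF18 differed by 0.07, while TAF13 and VMP1 had no second probe set to compare. LIPJ, PIGX, PPP1R3D, DEPDC4 and ZFAND6, the next genes by p value, differed by -0.46, -0.40, -0.45, -0.32 and -0.42 and did not pass in either fit.

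Falls were far more frequent among the dimmer probe sets of genes that have several. When each of the 45278 probe sets with 1 gene was tested, 36 were higher (0.0795%) and 89 lower (0.197%) after 2 Gy, or 15 and 77 after cyclic loess. With the replicate block these counts were 120 (0.265%) and 280 (0.618%). Of the 89 lower ones only 2, those of TAF13 and VMP1, were the brightest of their gene, and each was also the only probe set tested for its gene. The rest were dimmer probe sets of 72 genes. Their differences ran from -1.46 to -0.42, with a median of -0.72. The brightest probe sets of the same 72 genes had a median difference of -0.07. Of these 72, 64 were lower, and 1 had an unadjusted p under 0.05 downwards. Of all genes 62.63% were higher, and of those with a level from 8 to 10, 49.99%. The 72 genes were chosen through another probe set on the same arrays, so their lean downwards is not a separate result.

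IFNGR1, the interferon gamma receptor, had the largest such fall. Its dimmer probe set read 5.08, 5.86 and 5.26 after 2 Gy, 7.07, 6.80 and 6.73 after 5 cGy and 6.59 to 7.16 in sham, a difference of -1.46 ± 0.25 (adjusted p = 0.00537 in limma over all probe sets). Its brighter probe set read 9.90, 9.82 and 9.30 against 10.21, 9.91 and 9.70, a difference of -0.27 ± 0.21. The 3 arrays collected 3 h after 5 cGy + 2 Gy, which received the same challenge dose, read 6.70, 6.65 and 6.49 on the dimmer probe set. They so lay near the 5 cGy arrays for IFNGR1, but this differed between genes. On a dimmer probe set of DCK they read 5.85, 5.92 and 5.86. That lay between the 2 Gy arrays (5.03, 5.34 and 5.39) and the 5 cGy arrays (6.21, 6.54 and 6.29). HIF1A, the hypoxia-inducible transcription factor, differed by -1.24 ± 0.25 on a dimmer probe set and by -0.04 ± 0.15 on its brightest. RAP1B, a small GTPase, differed by -1.13 ± 0.22 and -0.06 ± 0.14, and STARD7, a lipid carrier of mitochondria, by -1.10 ± 0.20 and -0.01 ± 0.09.

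A control for RNA quality was higher on 2 of the 2 Gy arrays than on any 5 cGy or sham array. The array carries GAPDH control probe sets at the 3′ and the 5′ end of the transcript, and a larger 3′ minus 5′ difference accompanies shortened RNA or cDNA. This difference was 0.63, 0.68 and 0.38 on the 2 Gy arrays, 0.33, 0.37 and 0.32 on the 5 cGy arrays and 0.28 to 0.40 in sham. Over 10028 dimmer probe sets of bright genes, the share that lay more than 0.5 below its sham mean, relative to the brightest probe set of the gene, was 8.6%, 5.8% and 3.6% on the 2 Gy arrays and 1%, 0.8% and 0.9% on the 5 cGy arrays, with 0.2% to 4.3% in sham. On the other 30 arrays it ran from 1.5% to 16.2%, so the 5 cGy arrays lay below all of these. It was highest on the array with the highest GAPDH difference, at 1.05, which was a 2 Gy array at 24 h. Arrays with low GAPDH differences also had raised shares at 24 h. Replicate 1 of 5 cGy + 2 Gy had 5.3% at 0.32, and replicate 3 of 2 Gy had 4.9% at 0.27. With the GAPDH difference as a covariate 13 probe sets were called lower in place of 89 and 13 higher in place of 36. Among genes the count stayed at 5, but MORN1 and GALR2 lost the call (adjusted p = 0.0503 each in limma). GDF15 gained it (0.0102), and so did a gene outside those named by rule. At 3 h each 2 Gy array had a larger GAPDH difference than any 5 cGy array, so among these arrays RNA quality and dose cannot be told apart. The part of RNA quality in the falls was not tested, and where each probe set lies in its transcript was not used here.

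**Figure D3:**
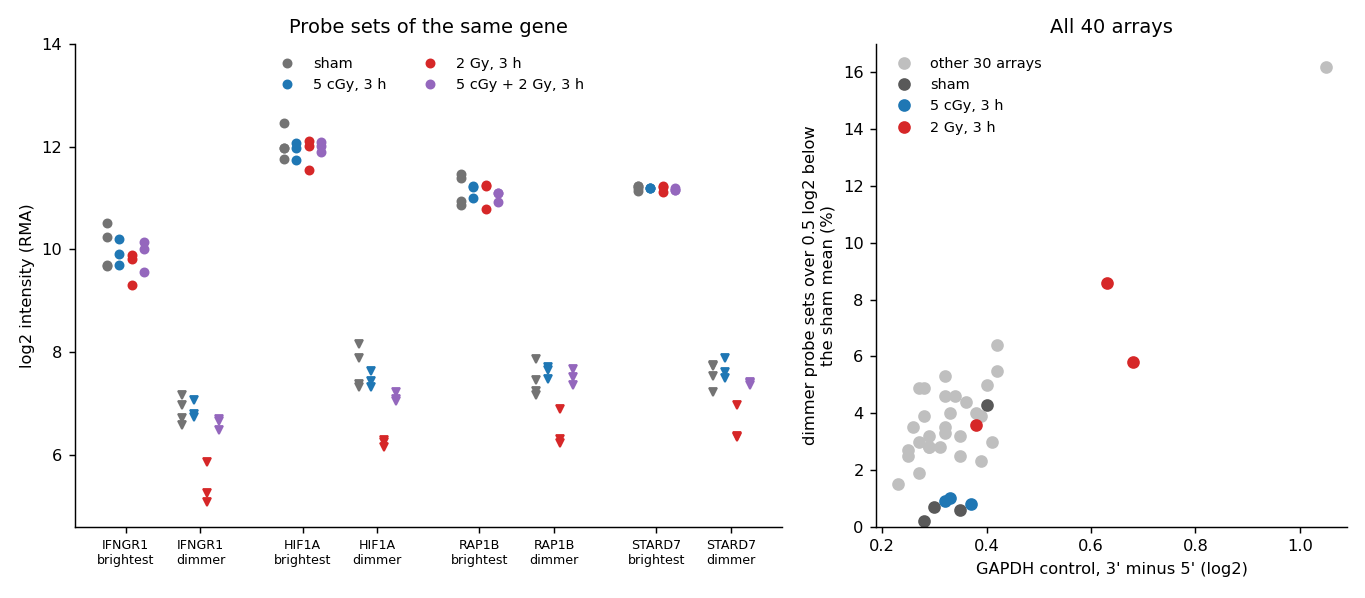
Left, log2 intensity of the brightest probe set (circles) and of a dimmer probe set (triangles) of 4 genes on the sham arrays and on the arrays collected 3 h after 5 cGy, 2 Gy or both doses in turn. Right, for each of the 40 arrays, the share of dimmer probe sets that lay more than 0.5 below the sham mean against the GAPDH 3′ minus 5′ difference, with 2 of the 2 Gy arrays at 3 h at 0.63 and 0.68.

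Rises were spread differently. Of the 36 higher probe sets 18 were the brightest of their gene, as were 18244 of the 45278 tested. Among the 36, 10 belonged to 6 p53 targets: BBC3, AEN, CDKN1A, GDF15, PPM1D and POLH. The others belonged to no listed p53 target. Several of them were dim, such as TRD (mean level 3.27), SEL1L (3.39) and OR13C9 (3.45), in the range that was shifted upwards. For GDF15 a second probe set of nearly equal brightness differed by 1.66 ± 0.31 (adjusted p = 0.0111 in limma over all probe sets). For POLH a dimmer probe set differed by 0.61 ± 0.12 (adjusted p = 0.0196), more than the 0.37 of its brightest. The signals of BBC3, CDKN1A, PPM1D, GDF15 and SESN2 thus did not depend on a single probe set, while those of SESN1 and PLK2 did. SESN1, at 0.87 on its brightest, differed by 0.12 on the dimmer one. PLK2, at 0.68 on its brightest, differed by -0.27, -0.14 and 0.20 on the other 3, and by 0.12 (adjusted p = 0.852 in limma) when its probe sets were averaged.

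None of the genes listed as immediate early, MAPK feedback, NF-kB and cytokine, interferon response or integrated stress response was called. Of the 26 immediate early genes measured, 15 were higher, with a median of 0.07 and 0 called. ATF3, a stress transcription factor, was the exception in size: it read 9.36, 8.4 and 8.31 after 2 Gy, 7.62, 7.29 and 7.27 after 5 cGy and at most 7.56 in sham. The difference was 1.30 ± 0.31, and it did not pass (adjusted p = 0.134 in limma, 0.0553 with the replicate block). The dimmer probe sets of ATF3, with levels from 3.51 to 4.96, differed by -0.03 to 0.27. MAPK feedback genes (median -0.01), NF-kB and cytokine genes (0.01), interferon response genes (0.03) and integrated stress response genes (0) had 0 called. CXCL10, an interferon-induced chemokine, read 3.71, 3.73 and 3.83 against 3.37, 3.51 and 3.14 (0.42 ± 0.12, adjusted p = 0.24), at the dim end of the scale, where 71.09% of the genes under a level of 4 were higher.

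Chaperone genes centred on 0, with a median of -0.01 over 21 genes of the endoplasmic reticulum and of 0 over 13 heat shock genes. HSP90AA1, the inducible cytosolic HSP90, was separated downwards at 8.36, 8.47 and 7.69 against 9.20, 8.71 and 8.68, with a difference of -0.69 ± 0.28 and an adjusted p of 0.427. Its other probe set differed by -0.18. Extracellular matrix genes (median -0.03 over 28), NRF2 targets (0 over 14), cholesterol synthesis genes (-0.02 over 18) and ribosomal protein genes (0.02 over 65) also had 0 called. The same held for TGF-beta and BMP response genes (-0.02 over 11), SR splicing factors (-0.08 over 16), circadian clock genes (-0.06 over 17), and genes of hypoxia and glycolysis (-0.02 over 16).

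No proliferation gene was called at 3 h. The 47 DNA replication genes had a median of 0.01 at 3 h, and 25 of them were higher after 2 Gy. Of the 42 mitosis genes 7 were higher, with a median of -0.13, and 0 were called, where the lists had medians of -0.37 and -1.06 at 24 h, a change with time that was not tested for the lists. WEE1, the kinase that delays entry into mitosis, read 9.95, 9.93 and 9.99 after 2 Gy and 10.18, 10.12 and 10.25 after 5 cGy (-0.22 ± 0.09, adjusted p = 0.46). Genes of homologous recombination (median 0.03 over 26), end joining (-0.03 over 13), nucleotide excision repair (-0.03 over 14) and damage sensing (-0.02 over 15) had 0 called, and so had the 62 replicative histone genes (0.07).

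**Figure D4:**
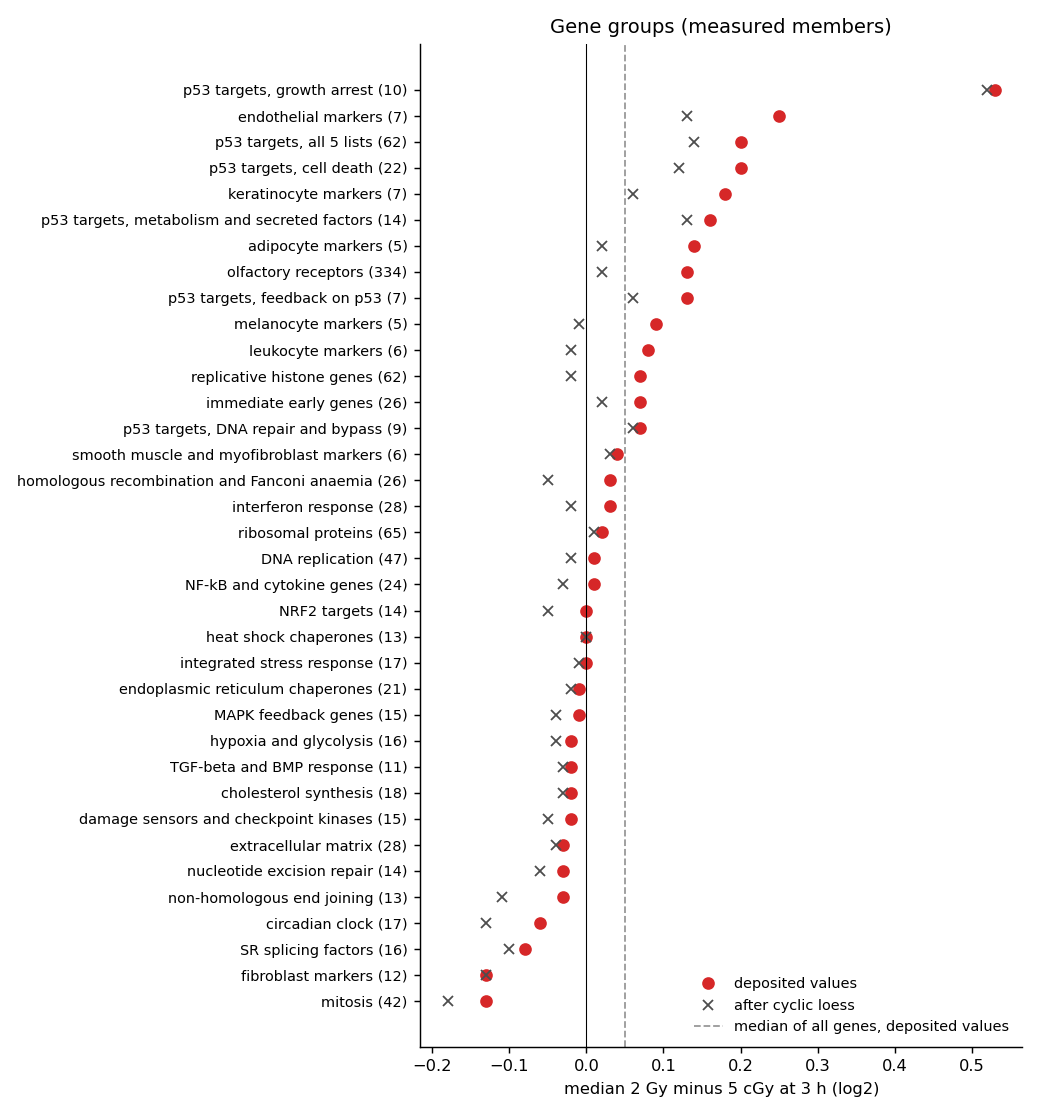
Median difference between 2 Gy and 5 cGy at 3 h for each gene group, with the number of measured members in brackets, from the deposited values (red) and after cyclic loess (crosses), and the median of all genes as a dashed line. The p53 arrest genes lie at 0.53 and 0.52, and the groups of dim genes, such as the olfactory receptors, move from 0.13 to 0.02.

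The same genes were followed to later times as values from other arrays. Between 2 Gy and 5 cGy, 5 genes were called higher at 6 h, 2 at 12 h and 3 at 24 h, and 29 were lower at 24 h only. CDKN1A was called at all 4 times, with differences of 0.67, 0.69, 0.59 and 0.50. BBC3 differed by 1.2 at 3 h and by 0.16, 0.33 and 0.40 later, PPM1D by 0.86 and then 0.48, 0.33 and 0.41, and GDF15 by 1.48 and then 1.02, 0.86 and 0.63. MDM2 differed more at 6 h (1.24) than at 3 h (0.79). FAS went from 0.00 at 3 h to 0.89, 0.69 and 0.69, CCNG1 from -0.36 to 0.88, 0.58 and 0.64, and ZMAT3, an RNA-binding p53 target, from -0.11 to 0.52, 0.69 and 0.63.

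Whether the difference between the doses at 3 h departed from its mean over the later times was tested as an interaction. It gave 0 genes in limma (smallest adjusted p = 0.064, while 1926 genes had an unadjusted p under 0.05) and 16 with the replicate block, 11 higher at 3 h (0.0603%) and 5 lower (0.0274%). BBC3 was among the 11, with an excess at 3 h of 0.91 ± 0.20 (adjusted p = 0.186, 0.018 with the block). VMP1 and TNFSF18 were among the 5, with -0.91 ± 0.17 and -1.41 ± 0.34 (0.00922 and 0.0205 with the block). FAS, CCNG1 and ZMAT3 did not pass in either fit, with adjusted p values of 0.365, 0.243 and 0.224, so their later values are not shown to differ from the difference at 3 h. The GAPDH difference beside these contrasts was highest on replicate 1 of 2 Gy at 24 h, as given above.

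**Figure D5:**
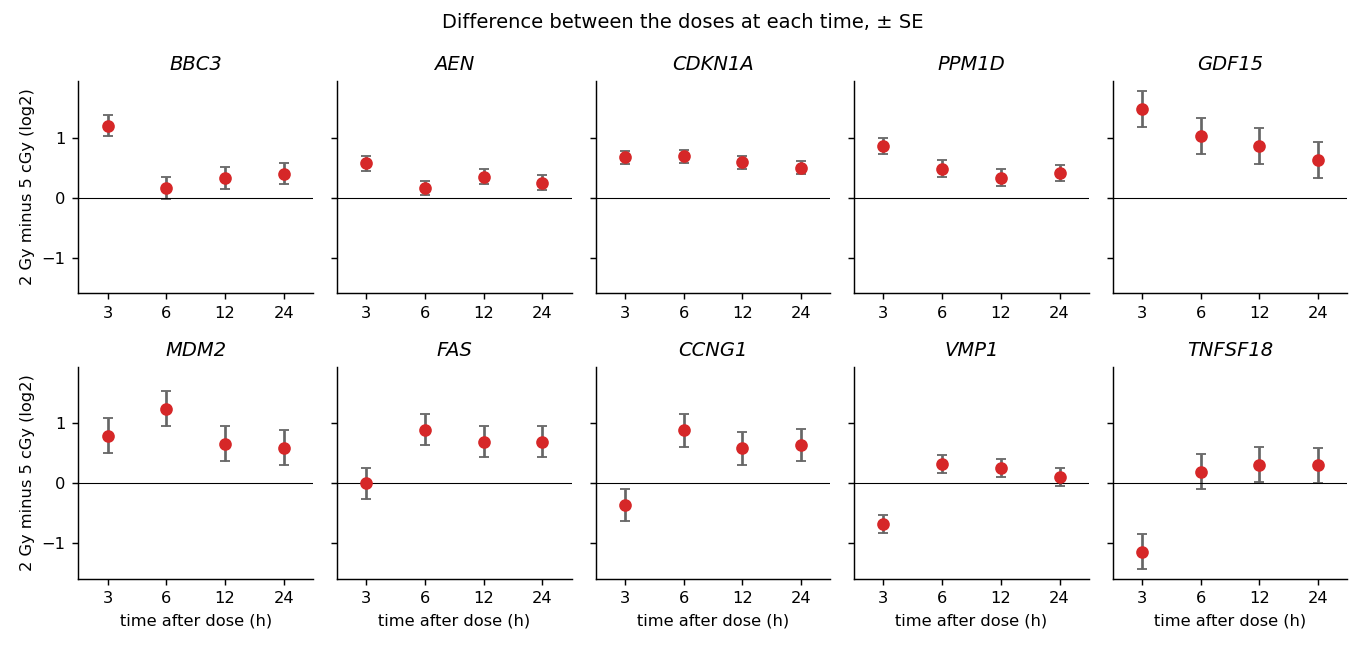
Difference between 2 Gy and 5 cGy for 10 genes at 3, 6, 12 and 24 h, with bars for the SE of the model. BBC3 lies at 1.2 at 3 h and at 0.40 or less later, CDKN1A stays between 0.50 and 0.69, and FAS and CCNG1 lie at 0.00 and -0.36 at 3 h and above 0.5 afterwards.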

How the data were processed

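Biotin-labelled RNA of every culture was hybridized to a PrimeView array of Affymetrix. The deposited values are on the log2 scale, as the authors obtained them with RMA, which adjusts the background, normalizes by quantiles and summarizes the probes. RMA is credited to the submitters' processing notes, and its version is not given in the sources used here. A custom probe set definition is named in the methods, whereas the table lists 49495 standard probe sets of the manufacturer, 102 of them controls, with 0 values missing. Values ran from 2.33 to 14.78 and the array medians from 5.62 to 5.7. Precision is limited by how many arrays there are. No pair of arrays was identical, the highest correlation of a pair being 0.997.

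Probe sets with exactly 1 gene in the annotation supplied were kept (45278), and the brightest of them over all arrays stood for each of 18244 genes. Means of the 13 groups were fitted to the 40 arrays by linear models in limma 3.58.1 (R 4.3.3, lmFit and eBayes, 27 residual degrees of freedom) with two-sided tests. The fit was tested on simulated data with known changes.

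Same-numbered arrays of the doses at 3 h correlated at 0.65, 0.28 and 0.52 in their deviations from the group means. The replicate numbers of the titles were therefore taken to pair the arrays, and the fit with the replicate number as a block is given beside each result it changes.

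The members and lists were chosen with earlier results of these data known. Genes were named by rule: of those called and separated by dose, the 12 largest rises and falls, filled to 8 by p value in a direction with fewer; every p53 target with an unadjusted p under 0.05; and up to 4 members by p value of each other list. Genes named for probe sets other than the brightest, or at later times, were chosen after their values were seen. BTG2, FDXR and GLS2 were listed but had no probe set of 1 gene. Alternatives changed the normalization, the probe set for a gene, filters on level and interquartile range, array weights, the GAPDH covariate, the arrays in the fit, the block and the threshold of the methods (unadjusted p under 0.05 and over 1.2-fold).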

Additional observations from a re-analysis of the deposited data

Results flagged for a closer look

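Among the 122 genes named by rule, 7 had a sham array far from the other 3 by Dixon's criterion, and chance flags about 1 in 20 groups. Sham is not part of the contrast between the doses, so these values do not enter the difference between the doses itself. They do enter the differences from sham and the spread of the linear model, and with it the SE and p value of every contrast. Replicate 1 was high for RCHY1 (6.65, the others at most 6.13) and COL1A1 (13.62, the next at 13.27), and low for DUSP5 (8.17, the others 9 to 9.1). Replicate 2 was low for DBP (5.27, the next at 5.76), H3C12 (4.39, the next at 4.73) and RPS18 (13.82, the next at 14.11). Replicate 3 was low for MORN1 (5.65, the others 5.75 to 5.77).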

How the results depend on the processing

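In all, 5 genes were called without the replicate block and 27 with it. The count was 0 from only the 6 arrays compared and 0 from the arrays at 3 h and sham, 3 after cyclic loess, 3 with array weights, 6 (4 higher, 2 lower) from the mean of probe sets, 61 (18 higher, 43 lower) from the probe set with the largest interquartile range, and 1357 at the threshold of the methods. Leaving out 1 array gave 0 to 11. Of settings chosen after seeing the data, testing every probe set gave 125 calls, and the block combined with the 6 arrays gave 2, with cyclic loess 13, with the GAPDH covariate 13, with every probe set 400 and without pair 1, 2 or 3 of arrays 10, 7 or 12. With the block the calls were split 24 higher to 3 lower, and 8 to 5 after cyclic loess.

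The interaction with time gave 0 calls without and 16 with the block, 9 from the mean of probe sets, 140 (23 higher, 117 lower) from the probe set with the largest interquartile range, 2 with array weights, 6 with the block and cyclic loess, and 1829 at the threshold of the methods. Leaving out 1 array gave 0 to 1, and leaving out pair 1, 2 or 3 with the block gave 0, 2 or 1.

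BBC3, CDKN1A and PPM1D kept their direction in every setting. They lost the call with only the 6 arrays, with the arrays at 3 h and sham, without 2 Gy replicate 3 (adjusted p = 0.0666 each) and without 5 cGy replicate 2 (0.0526, 0.0526 and 0.122). PPM1D also lost it without 2 Gy replicate 1 (0.0676), and CDKN1A and PPM1D with the block on only the 6 arrays (0.149 and 0.0716). Of 2771 values of single genes over all settings, 2753 kept their direction. The 18 that did not came from genes that did not pass. PFKFB4 was -0.08 when probe sets were averaged. With the probe set of the largest interquartile range PFKFB4 was -0.14, FANCC -0.09, DUSP8 0.00, RAD23B 0.06, DCN 0.04 and SRSF9 0.03. NUPR1 was -0.03 with array weights, ENO1 0.05 with the GAPDH covariate and PDK1 0.03 with the block without pair 3. Over the settings without 1 array NUPR1 ran from -0.08 to 0.24, PHGDH from -0.06 to 0.27, GTF2H1 from -0.29 to 0.00, SLC7A11 from -0.36 to 0.00, PDK1 from -0.29 to 0.07 and ENO1 from -0.27 to 0.00. The cause was not tested.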
